A study of Rattus norvegicus with 29 samples.

Results

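miR-140 and miR-455 are 2 microRNAs (miRNAs, short RNAs that lower the output of matching messenger RNAs) best known from cartilage. The deposited plasma count table held 4 rows for them among 754 miRNAs, namely rno-miR-140-3p, rno-miR-140-5p, rno-miR-455-3p and rno-miR-455-5p (the 3p and 5p arm of each hairpin, written below without the rat prefix), and all 4 were followed here in every rat. They were picked by name after it was known that their plasma levels were high at UCLA and low at UEF. Differences between the study sites are therefore described without a test, whereas injury, later epilepsy and the balance between arms were tested. The table came from tail vein plasma of 29 adult male Sprague-Dawley rats drawn under isoflurane 48 h after surgery. By the paper, the rats came from Envigo at UEF, in-house breeding at Monash and Charles River at UCLA, and diets differed. The analgesic was buprenorphine at UEF and Monash and flunixin meglumine at UCLA. Only UCLA rats also had antibiotic-medicated chow (trimethoprim sulfamethoxazole) after surgery. These factors cannot be told apart from site. At UEF, 4 rats had a sham operation, 4 had lateral fluid-percussion traumatic brain injury (TBI) without later epilepsy (labelled TBIN, here TBI−) and 4 had TBI with later epilepsy (labelled TBIE, here TBI+). The corresponding numbers were 3, 3 and 2 at Monash and 3, 3 and 3 at UCLA. Sham rats were operated on but received no fluid pulse, and epilepsy was scored by continuous video-EEG months after the plasma was drawn.

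Mature miRNAs are cut as pairs from a hairpin precursor, with 1 strand from each arm, and each strand finds its targets mainly through the seed near its 5′ end. miR-140 is abundant in chondrocytes, the cells of cartilage, where the transcription factor SOX9 drives it, and mice without it have a growth defect of the skeleton. miR-455 is likewise made in developing cartilage. In the RefSeq rat annotation (GRCr8), the miR-140 gene lies within Wwp2, which encodes a ubiquitin ligase, and the miR-455 gene lies within Col27a1, which encodes a fibrillar collagen of cartilage. Plasma miRNAs come from many tissues, so a plasma level names no source. More source cells, more RNA per cell and more release cannot be told apart in plasma.

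The mature sequences are shown because each arm was counted on its own and has its own seed. They are from RefSeq (GRCr8), are written 5′ to 3′ and have the seed, bases 2 to 8, in capitals. miR-140-3p lies at chr19:52375353-52375373 and miR-140-5p at chr19:52375314-52375335, both on the plus strand, and miR-455-3p lies at chr5:81704881-81704902 on the plus strand.
miR-140-3p: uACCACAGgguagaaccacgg
miR-140-5p: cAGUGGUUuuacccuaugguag
miR-455-3p: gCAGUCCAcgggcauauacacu
The 3 seeds differ, and 0 other mature rat miRNAs of the RefSeq table carry any of them. RefSeq held 3 of the 4 members, and the fourth is miR-455-5p. The miR-140 hairpin (chr19:52375293-52375391) is shown with its 5p and then its 3p arm in capitals, because the ratio of these arms is followed in each rat.
mir-140: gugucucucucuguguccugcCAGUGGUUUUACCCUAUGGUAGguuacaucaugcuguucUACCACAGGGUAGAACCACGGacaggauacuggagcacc

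The total miRNA count per rat ranged from 1162307 to 5223469 (median 2713557). Levels are CPM (counts scaled to a common library size) after TMM normalization, which corrects for a few abundant miRNAs taking a large share of a library. In 3 rats the members stood apart or the scaling was unusual. In UEF sham 3, liver-specific miR-122-5p took 55.1% of all counts and the TMM factor was 0.333, which scales its CPM upward. UCLA TBI+ 1 was far below the other UCLA rats for all 4 members, and Monash sham 2 was the Monash rat with the highest level of all 4. The main changes in the members' values without these rats are given beside the results.

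miR-140-3p was the abundant arm. It took on average 1.81% of the counts and ranked 11 of 754 miRNAs, with 8262 to 151382 counts per rat. miR-140-5p ranked 76, miR-455-5p 112 and miR-455-3p 118. The lowest count of any member in any rat was 89, so none was near the limit of detection. By site, the mean share of counts taken by miR-140-3p was 0.697% in UEF rats, 1.22% in Monash rats and 3.82% in UCLA rats, which made it 27th, 17th and 5th in abundance, respectively. This share does not use the TMM scaling.

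All 4 members were highest at UCLA. The level of miR-140-3p was 7397 ± 2348 CPM at UEF (SD, n = 12), 12284 ± 7050 CPM at Monash (n = 8) and 37963 ± 17168 CPM at UCLA (n = 9). The lowest, median and highest rats were at 3395, 7301 and 11683 CPM at UEF, at 7464, 9700 and 28987 CPM at Monash, and at 9530, 41706 and 64875 CPM at UCLA. Thus 8 of 9 UCLA rats were above every UEF rat, and 1 UCLA rat was inside the UEF range. At UCLA the sham rats were at 41706, 19615 and 36193 CPM, the TBI− rats at 52300, 48092 and 26257 CPM, and the TBI+ rats at 9530, 43095 and 64875 CPM. Against UEF, the high level was present in sham-operated and injured rats alike, TBI+ 1 excepted. Against Monash the separation was less complete, since Monash sham 2, at 28987 CPM, was above UCLA sham 2 and UCLA TBI− 3 as well as TBI+ 1.

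miR-140-5p, the less abundant strand of the same hairpin, had the same order of sites. Its level was 410 ± 149 CPM at UEF, 575 ± 267 CPM at Monash and 1426 ± 648 CPM at UCLA. At UEF the lowest, median and highest rats were at 247, 383 and 752 CPM, at Monash at 256, 523 and 1168 CPM, and at UCLA at 440, 1336 and 2587 CPM. Without UCLA TBI+ 1, the lowest UCLA rat was at 862 CPM, above every UEF rat and every Monash rat but 1.

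The arms of miR-455 were present at similar levels to each other. miR-455-3p was at 131 ± 83.7 CPM at UEF, 152 ± 72.5 CPM at Monash and 572 ± 278 CPM at UCLA. The UCLA sham rats were at 747, 429 and 509 CPM, the TBI− rats at 580, 642 and 455.3 CPM, and the TBI+ rats at 51.2, 648 and 1090 CPM. The highest UEF rat was at 342 CPM and the highest Monash rat at 298 CPM, so all UCLA rats except TBI+ 1 were above all rats of both other sites. For miR-455-5p the levels were 147 ± 74.7, 173 ± 76.8 and 644 ± 297 CPM at UEF, Monash and UCLA. The UCLA sham rats were at 697, 440 and 575 CPM, the TBI− rats at 543, 877 and 616 CPM, and the TBI+ rats at 64.8, 917 and 1071 CPM. The highest UEF and Monash rats were at 344 and 343 CPM, so here too TBI+ 1 was the only UCLA rat not above them. For orientation, 9 of 751 miRNAs (1.2%) had this pattern against UEF, and those with it against Monash are named below.

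**Figure D1:**
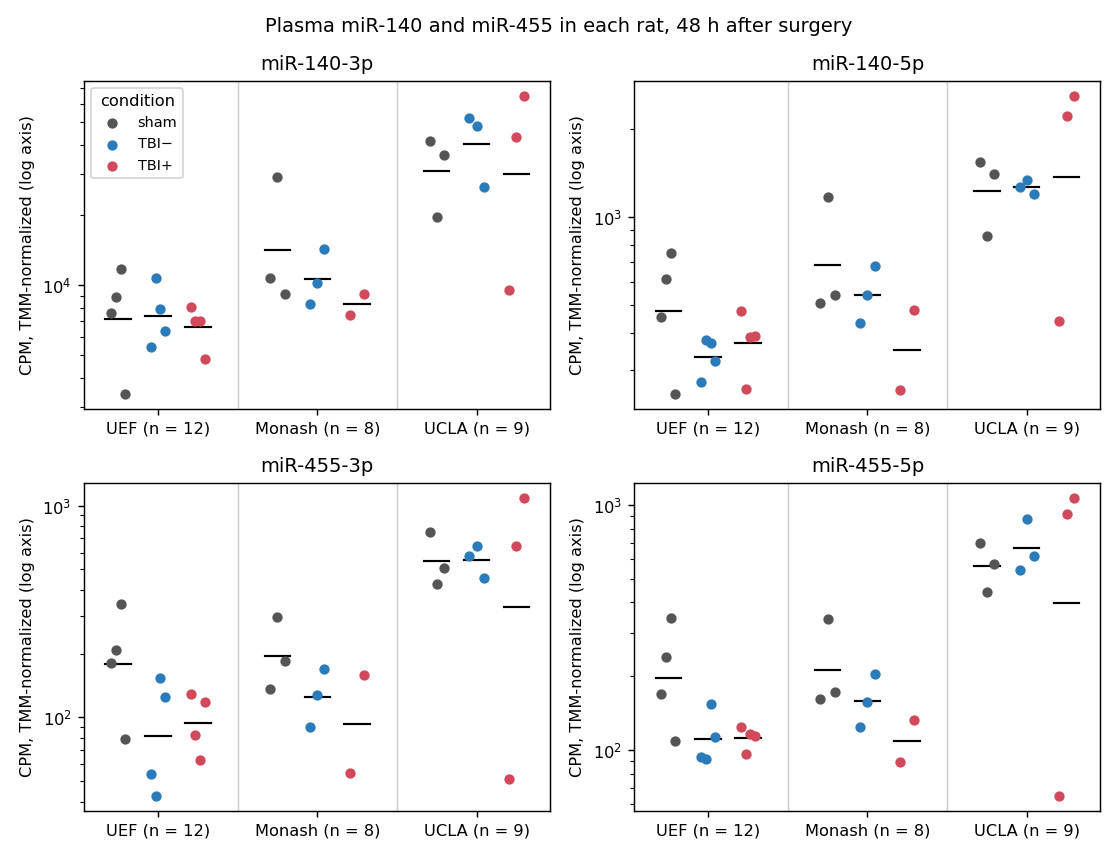
Normalized level (CPM, log axis) of each member in each of the 29 rats, by site and condition, with 1 point per rat and a bar at the geometric mean of each group. UCLA points lie above UEF points in all 4 panels except for UCLA TBI+ 1, which is at 9530 CPM for miR-140-3p and 51.2 CPM for miR-455-3p.

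With condition in the edgeR model, the log2 difference UCLA minus UEF was 2.37 (SE 0.29) for miR-140-3p, 1.83 (SE 0.27) for miR-140-5p, 2.24 (SE 0.35) for miR-455-3p and 2.23 (SE 0.31) for miR-455-5p. These are 5.18-, 3.57-, 4.73- and 4.69-fold, and they ranked 3, 7, 4 and 5 from the highest of 751 miRNAs tested, whose median difference was −0.07. For orientation, 70 of the 751 miRNAs (9.32%) had an edgeR adjusted p below 0.05 between UCLA and UEF, 31 of them higher at UCLA (4.13%). Between UCLA and Monash the log2 differences were 1.68 (SE 0.33), 1.35 (SE 0.31), 2.02 (SE 0.40) and 2.01 (SE 0.35) in the same order of members. Between Monash and UEF they were smaller, 0.69 (SE 0.29), 0.48 (SE 0.28), 0.22 (SE 0.36) and 0.22 (SE 0.31). Without Monash sham 2 they were 0.44, 0.33, 0.13 and 0.098, and without UEF sham 3 they were 0.79, 0.59, 0.39 and 0.37. In that comparison 75 miRNAs (9.99%) passed the same threshold, and 41 (5.46%) did between UCLA and Monash.

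The difference between UCLA and UEF was seen in sham rats alone and in injured rats alone. Among sham rats the log2 difference was 2.07 (SE 0.52) for miR-140-3p, 1.32 (SE 0.48) for miR-140-5p, 1.51 (SE 0.47) for miR-455-3p and 1.44 (SE 0.45) for miR-455-5p. Among injured rats it was 2.48 (SE 0.30), 2.03 (SE 0.31), 2.54 (SE 0.45) and 2.55 (SE 0.38). Whether it differed between sham and injured rats was not tested for UCLA and UEF alone. The test of the injury difference by site below covers all sites together, Monash included. Without UCLA TBI+ 1 the differences over all rats were 2.51, 1.95, 2.39 and 2.38.

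The 9 groups of site and condition had the same broad order for every member. The 3 UCLA groups had higher mean levels than the 6 groups of UEF and Monash. For miR-140-5p, miR-455-3p and miR-455-5p, Monash sham was the highest of these 6, and the UCLA group next above it in order of means (TBI−, TBI− and sham, respectively) did not overlap with it. For miR-140-5p the lowest UCLA TBI− rat was at 1195 CPM and the highest Monash sham rat at 1168 CPM. The share of all miRNAs with such a gap was not counted, and a high level at UCLA was known when the members were picked. Every other pair of neighboring groups overlapped, as did all neighbors for miR-140-3p, where Monash sham 2 at 28987 CPM was above the lowest UCLA sham rat. The UCLA TBI+ group overlapped with the groups of the other sites through TBI+ 1.

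Every UCLA rat except TBI+ 1 was above every UEF rat for all 4 members, and 9 of 751 miRNAs (1.2%) had that pattern. The other 5 were miR-149-5p, miR-351-3p, miR-351-5p, miR-503-3p and miR-503-5p, a set chosen after its values were seen. Against Monash, both arms of miR-455 had this pattern and neither arm of miR-140 did. So did miR-125b-2-3p, miR-149-5p, miR-322-3p and both arms of miR-351 and of miR-503, named after their values were seen. With the miR-455 arms, these were all of the 751 miRNAs that had it against Monash. Setting aside TBI+ 1 was also decided after its values were seen. With all 9 UCLA rats, 0 miRNAs (0%) lay wholly above the UEF rats. In a fit made without TBI+ 1, 77 miRNAs passed the threshold between UCLA and UEF, and TBI+ 1 was nearer to the UCLA mean for 40 of them (51.9%). For the 8 other UCLA rats the corresponding share was 68.8% to 87.7%, and for UEF rats the share nearer to UEF was 50% to 88.7%. The members were not taken out of these miRNAs, so the share is not independent of the low miR-140 and miR-455 levels of TBI+ 1. The cause of its low levels was not tested.

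None of the 4 members passed the test of TBI against sham, in which 9 of 751 miRNAs (1.2%) did, 5 higher (0.666%) and 4 lower (0.533%) after TBI. The estimates were below 0 for all 4. For miR-140-3p the log2 difference TBI minus sham was −0.19 (95% confidence interval −0.70 to 0.33, edgeR quasi-likelihood test with Benjamini-Hochberg adjusted p = 0.878). For miR-140-5p it was −0.33 (−0.82 to 0.15, edgeR adjusted p = 0.664). miR-455-3p had a log2 difference of −0.68 (−1.30 to −0.06, edgeR adjusted p = 0.365, unadjusted 0.0327). miR-455-5p had one of −0.53 (−1.08 to 0.02, edgeR adjusted p = 0.476, unadjusted 0.0566). An unadjusted p below 0.05 was reached by 83 of 751 miRNAs (11.1%). The intervals leave room for a fall of miR-455-3p to less than its 0.625-fold estimate as well as for almost no change.

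Over all sites but without Monash sham 2, the estimates were 0.062, −0.15, −0.52 and −0.36 for miR-140-3p, miR-140-5p, miR-455-3p and miR-455-5p.

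For miR-455 the estimate was farthest below 0 at UEF, and without the UEF rats it was −0.39 for miR-455-3p and −0.25 for miR-455-5p. At UEF miR-455-3p was at 181, 208, 342 and 78.9 CPM in the sham rats, at 54.3, 42.6, 153 and 125 CPM in the TBI− rats and at 128, 82.7, 62.7 and 118 CPM in the TBI+ rats. Of the 4 sham rats, 3 were above all 8 injured rats and sham 4 was within their range. For miR-455-5p, the sham rats were at 169, 238, 344 and 109 CPM and the injured rats ranged from 92.1 to 153 CPM (median 113). Again 3 sham rats were above every injured rat. The share of all miRNAs with such a separation was not counted. The log2 difference TBI minus sham at UEF was −1.08 for miR-455-3p (95% confidence interval −1.996 to −0.16) and −0.93 for miR-455-5p (−1.73 to −0.14), with an edgeR adjusted p of 0.207 for each. For miR-140-3p it was −0.14 (edgeR adjusted p = 0.931) and for miR-140-5p −0.53 (edgeR adjusted p = 0.523). At UEF, 29 of 751 miRNAs (3.86%) passed. Without UEF sham 3, the rat with the low TMM factor and the highest level of each member at UEF, the differences at UEF were −0.65 and −0.57 for the miR-455 arms (edgeR adjusted p = 0.840 for each), and over all sites −0.48 and −0.36. The estimate for miR-140-3p at UEF was then 0.14.

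At Monash the log2 differences TBI minus sham were −0.72 for miR-140-3p, −0.63 for miR-140-5p, −0.78 for miR-455-3p and −0.67 for miR-455-5p, each with an edgeR adjusted p of 0.838. There 0 of 751 miRNAs (0%) passed by edgeR, and 56 (7.46%) had an unadjusted p below 0.05. The Monash sham rats were at 10758, 28987 and 9152 CPM of miR-140-3p and the injured rats at 8320, 10247, 14215, 7464 and 9131 CPM, so the groups overlapped and sham 2 alone was above all injured rats. Without Monash sham 2 the differences there were −0.02, −0.12, −0.39 and −0.23. At UCLA the estimates were 0.32, 0.25, 0.04 and 0.26, with edgeR adjusted p between 0.805 and 0.986, and 2 miRNAs (0.266%) passed. Without UCLA TBI+ 1 they were 0.50, 0.41, 0.24 and 0.47.

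Thus the estimates were below 0 at UEF and Monash and above 0 at UCLA, but the difference between sites was not shown. The interaction of injury and site had an edgeR adjusted p of 0.593 for miR-140-3p, 0.594 for miR-140-5p, 0.617 for miR-455-3p and 0.483 for miR-455-5p, and 8 of 751 miRNAs (1.07%) passed it. Without UCLA TBI+ 1 the lowest of the 4 was 0.275, for miR-455-5p.

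**Figure D2:**
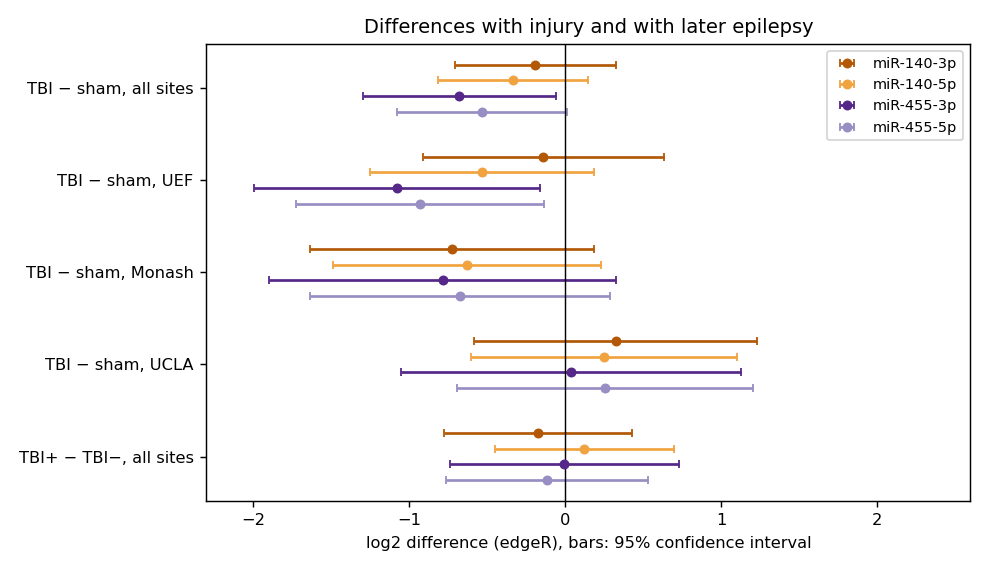
Log2 difference of each member with TBI, over all sites and at each site, and with later epilepsy (edgeR). Points are estimates and bars are 95% confidence intervals. The TBI estimates of all 4 members are below 0 at UEF and Monash and above 0 at UCLA, and no member passed the test after adjustment.

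No member passed the test of later epilepsy, and the intervals were wide. The log2 difference TBI+ minus TBI− was −0.17 for miR-140-3p (95% confidence interval −0.78 to 0.43), 0.12 for miR-140-5p (−0.45 to 0.70), −0.0033 for miR-455-3p (−0.73 to 0.73) and −0.12 for miR-455-5p (−0.77 to 0.53). The edgeR adjusted p was 0.998 for each, and 0 of 751 miRNAs (0%) passed. By edgeR, 18 miRNAs (2.4%) had an unadjusted p below 0.05, and DESeq2 also called 0. Within UEF the log2 differences ran from −0.17 to 0.17, within Monash from −0.58 to −0.27 and within UCLA from −0.11 to 0.47. The UCLA TBI+ rats held the lowest and the highest UCLA level of each member, TBI+ 1 and TBI+ 3. Without TBI+ 1 the differences over all sites were −0.03, 0.26, 0.17 and 0.04.

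The balance between arms differed between the hairpins. The 3p/5p ratio of counts, which needs no normalization, had a geometric mean of 18.1 among UEF rats, 20.99 among Monash rats and 26.0 among UCLA rats for miR-140, with single rats from 12.3 to 41.3. For miR-455 it was 0.825, 0.855 and 0.876, with single rats from 0.463 to 1.19. Thus the 3p arm was the more abundant in every rat for miR-140, while for miR-455 the arms were close to equal and either could be the more abundant. Strands can be captured with unequal efficiency in library preparation, so a ratio of counts is not a ratio of molecules in plasma.

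The arm ratios did not pass a test for injury or epilepsy. The tests over all sites took no account of site. A version centered on site, with labels permuted within sites, passed none either. The mean log2 ratio of miR-140 was 4.47 ± 0.40 after TBI (SD, n = 19) and 4.27 ± 0.37 in sham rats (n = 10), a difference of 0.19 (two-sided permutation test, p = 0.216, adjusted over 4 tests 0.304). At UEF the 4 sham rats had ratios of 16.7, 14.4, 15.5 and 13.7. The TBI− rats there had ratios of 19.9, 28.5, 21.2 and 19.7, all above the sham rats, and the TBI+ rats of 16.9, 27.2, 18.1 and 12.3, which spanned them. The log2 difference within UEF was 0.40 (two-sided exact permutation test, p = 0.0646). The Monash difference was 0.03 (exact p = 0.893), and the UCLA difference was 0.07 (exact p = 0.881). For miR-455 the mean log2 ratio was −0.31 ± 0.38 after TBI and −0.10 ± 0.19 in sham rats, a difference of −0.20 (permutation p = 0.118, adjusted 0.304). Within the sites this difference was at UEF −0.20 (exact p = 0.453), at Monash −0.18 (exact p = 0.429), and among UCLA rats −0.23 (exact p = 0.190). Between TBI+ and TBI− the log2 ratio differed by −0.23 for miR-140 (exact permutation test, p = 0.228, adjusted 0.304) and by 0.10 for miR-455 (exact permutation test, p = 0.567, adjusted 0.567). Within the sites the exact tests of TBI+ against TBI− gave p between 0.2 and 1. The smallest p possible was 0.0286 at UEF and 0.1 at UCLA, and it was higher at Monash, which had the fewest injured rats.

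**Figure D3:**
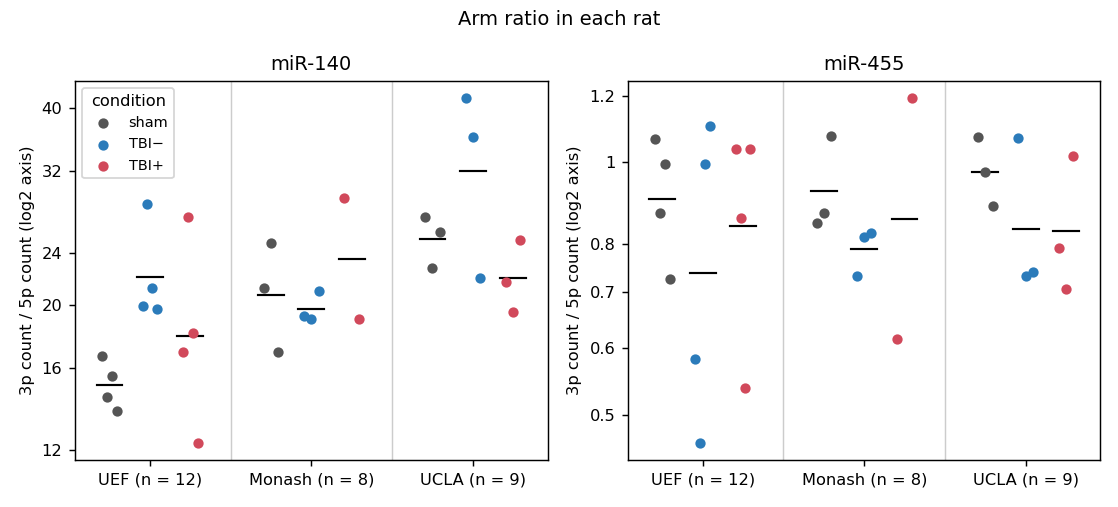
Ratio of 3p to 5p counts (log2 axis) in each rat for miR-140 and miR-455, by site and condition, with 1 point per rat and a bar at the geometric mean of each group. All miR-140 ratios lie between 12.3 and 41.3 and all miR-455 ratios between 0.463 and 1.19.

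Within a site most pairs of members rose and fell together from rat to rat, except miR-140-3p with miR-455 at UEF. Correlations of log2 CPM were computed for 6 pairs of members at 3 sites, 18 in all, over rats that share 1 normalization factor per library. Sham and injured rats of a site were pooled without centering on condition, so r also holds any difference between conditions. Within-site r was not computed for other pairs of miRNAs, so there is no background to compare with. For the arms of miR-455, Pearson's r was 0.90 at UEF (n = 12, Spearman's rho 0.92, adjusted permutation p = 0.00018), 0.92 at Monash (n = 8, rho 0.90, adjusted exact p = 0.00481) and 0.98 at UCLA (n = 9, rho 0.88, adjusted exact p = 0.00104). For the arms of miR-140 it was 0.71 (rho 0.70, adjusted permutation p = 0.0115), 0.92 (rho 0.90, adjusted exact p = 0.000957) and 0.91 (rho 0.73, adjusted exact p = 0.00208). The hairpins also went together: miR-140-5p and miR-455-5p had r = 0.87 (rho 0.78, adjusted permutation p = 0.000936) at UEF, 0.99 (rho 0.98, adjusted exact p = 0.00067) at Monash and 0.92 (rho 0.88, adjusted exact p = 0.000936) at UCLA. Leaving out the 2 rats farthest from the median, r for this pair was 0.60, 0.95 and 0.81. The adjusted p for Spearman's rho of these 9 correlations ran from 0.0027 to 0.04.

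At UEF miR-140-3p had r = 0.36 with miR-455-3p (rho 0.45, adjusted permutation p = 0.259 for r and 0.142 for rho) and r = 0.53 with miR-455-5p (rho 0.50, adjusted permutation p = 0.0857 and 0.111). UEF TBI− 2 had the second highest level of miR-140-3p at that site, 10764 CPM, and the lowest of miR-455-3p, 42.6 CPM. For miR-140-3p against miR-455-3p at Monash the adjusted exact p was 0.0258 for r (0.79) and 0.0516 for rho (0.74). With TBI+ 1 left out, a choice made after its values were seen, r for the 6 pairs at UCLA ran from 0.74 to 0.88 over 8 rats. Without the 2 farthest rats it ran from 0.55 to 0.82. At UEF, r without the 2 farthest rats was 0.45 for the arms of miR-140 and 0.84 for the arms of miR-455. There it was 0.44 for miR-140-5p with miR-455-3p. For miR-140-3p it was −4.3e-05 with miR-455-3p and 0.29 with miR-455-5p.

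**Figure D4:**
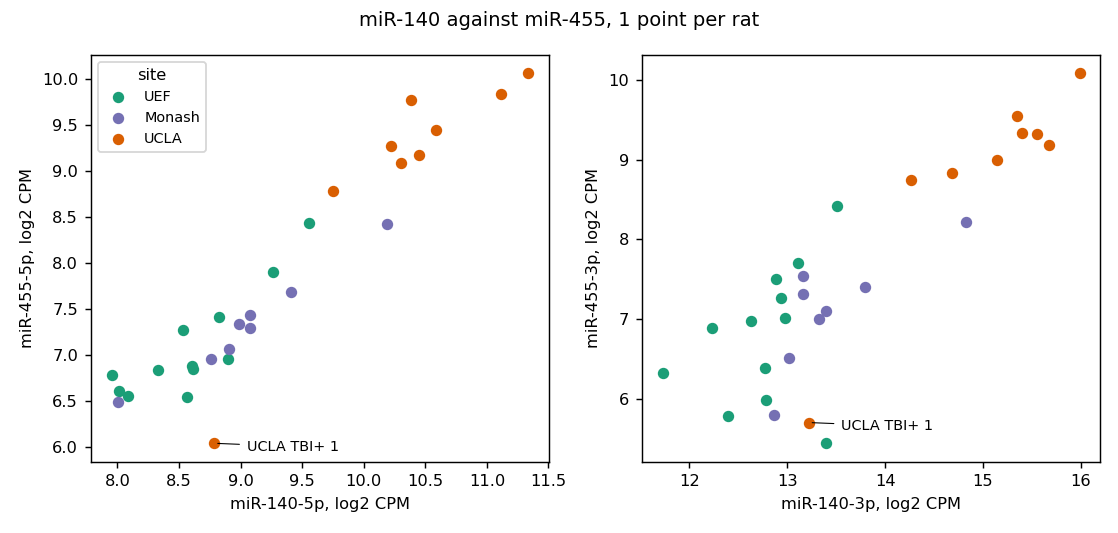
Log2 CPM of miR-140-5p against miR-455-5p (left) and of miR-140-3p against miR-455-3p (right), with 1 point per rat colored by site. UCLA rats lie at the upper right except UCLA TBI+ 1, which lies among the rats of the other sites.

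The miRNAs most like the members over the 29 rats came from a cluster on the X chromosome, known in rodents for its activity in growth and muscle differentiation. For each member the 3 miRNAs with the highest Pearson r of log2 CPM were taken. For miR-140-3p they were miR-503-5p (0.95), miR-322-3p (0.93) and miR-503-3p (0.87), and for miR-140-5p miR-322-3p (0.94), miR-503-5p (0.91) and miR-503-3p (0.88). For miR-455-3p they were miR-503-3p (0.93), miR-351-5p (0.92) and miR-322-3p (0.92), and for miR-455-5p miR-322-3p (0.96), miR-503-3p (0.93) and miR-351-5p (0.93). These correlations hold the difference between sites. After centering on site and condition r ran from 0.62 to 0.92. With UCLA TBI+ 1 also left out, the centered r ran from 0.35 (miR-140-3p with miR-503-3p) to 0.86 (miR-455-5p with miR-322-3p). The libraries share their depth and scaling, and r is given as a description.

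The levels of these miRNAs are given as a description, since their likeness was measured over all rats, UCLA TBI+ 1 included, and so fixes a high level at UCLA and a low one in that rat. miR-503-3p was at a mean of 236 CPM at UEF, 326 CPM at Monash and 1628 CPM at UCLA, and at 110 CPM in UCLA TBI+ 1. miR-322-3p was at 82.7, 88.5 and 332 CPM and at 51.9 CPM in that rat. Of 11 rows from the X-linked cluster (miR-322, miR-503, miR-351, miR-542, miR-450a and miR-450b), 8 were higher at UCLA than at UEF by edgeR and 0 lower (4.13% and 5.19% of all miRNAs, respectively). Their median log2 difference was 1.24 against −0.07 over all miRNAs. This list was chosen with these site differences known and holds the miRNAs named for their likeness, so its count is no independent evidence of a direction. Among its 4 most abundant rows, the log2 difference was 1.78 for miR-351-5p, 2.79 for miR-503-3p, 1.24 for miR-542-5p and 0.11 for miR-542-3p. The count was 8 without UCLA TBI+ 1 and 9 without UEF sham 3. Between TBI and sham 0 of the 11 passed.

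In a list of other miRNAs known from cartilage and connective tissue, no row passed in the members' direction. Of its 17 rows, 0 were higher and 6 lower at UCLA than at UEF (5.19% of all miRNAs were lower), with a median log2 difference of −0.66. This list too was chosen with earlier results of these data known, so its count is no independent evidence of a direction. Without UEF sham 3, 5 were lower. Of the 11 rows that did not pass, 4 had values above 0, namely miR-675-5p (0.37), miR-675-3p (0.31), miR-1247-3p (0.24) and miR-27b-5p (0.085), chosen after their values were seen. Its 4 most abundant rows were miR-143-3p and miR-145-5p, both known from smooth muscle and fibroblasts, miR-199a-3p from mesenchymal cells and miR-27b-3p from vessels and other tissues. miR-143-3p differed by −1.79 (edgeR adjusted p = 0.0127) and miR-145-5p by −2.16 (edgeR adjusted p = 0.000301). The values were −0.16 for miR-199a-3p (edgeR adjusted p = 0.848) and −0.47 for miR-27b-3p (edgeR adjusted p = 0.341). The summed level of the list had a median of 25832 CPM at UEF (range 10238 to 139374) and 15305 CPM at UCLA (range 7679 to 23911), so the ranges overlapped. Cartilage is named here only as the tissue in which miR-140 and miR-455 are best known, and the source of their plasma levels was not tested. Between TBI and sham 0 of the 17 passed, with a median of −0.25.

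Markers of other tissues also differed between UCLA and UEF. Their lists were likewise chosen with earlier results of these data known, so the counts are given as a description. All 6 liver rows were lower at UCLA (median −1.54, 5 of 6 without UCLA TBI+ 1 or without UEF sham 3). Their summed level was 10015 to 26822 CPM at UCLA and 30770 to 1739210 CPM at UEF, which did not overlap. The share of all miRNAs with such a gap is not given here. Of 15 muscle rows 6 were lower (median −0.63), with a summed level of 494 to 1368 CPM against 932 to 57610 CPM, which overlapped. Over all miRNAs, 4.13% were higher and 5.19% lower. Of 14 epithelial rows 1 was lower, of 6 white cell and platelet rows 1 was higher, and of 7 brain rows 1 was higher, counts too small to be read against these shares. Of 7 red cell rows 0 passed, and 1 was higher without Monash sham 2. The summed red cell level, which rises in plasma when red cells break, was 212823 to 569090 CPM at UCLA and 128868 to 633491 CPM at UEF. UCLA TBI+ 1 had the highest UCLA sum of the connective tissue, muscle, white cell and brain lists, at 23911, 1368, 161502 and 15526 CPM. A count of 0 in at least 1 rat was found for 4 muscle rows, 2 brain rows and 1 connective tissue row, and for 0 rows of the other lists. The part of these differences in the levels of miR-140 and miR-455 was not tested.

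After TBI, 2 of the 6 liver rows were lower and 1 of the 7 brain rows, miR-128-3p, was higher, while 0 rows of the muscle, epithelium, red cell and white cell and platelet lists passed. Among all miRNAs, 0.533% were lower and 0.666% higher after TBI. Without UEF sham 3, 0 liver rows were lower, and without Monash sham 2, 2 of the 7 red cell rows were higher.

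**Figure D5:**
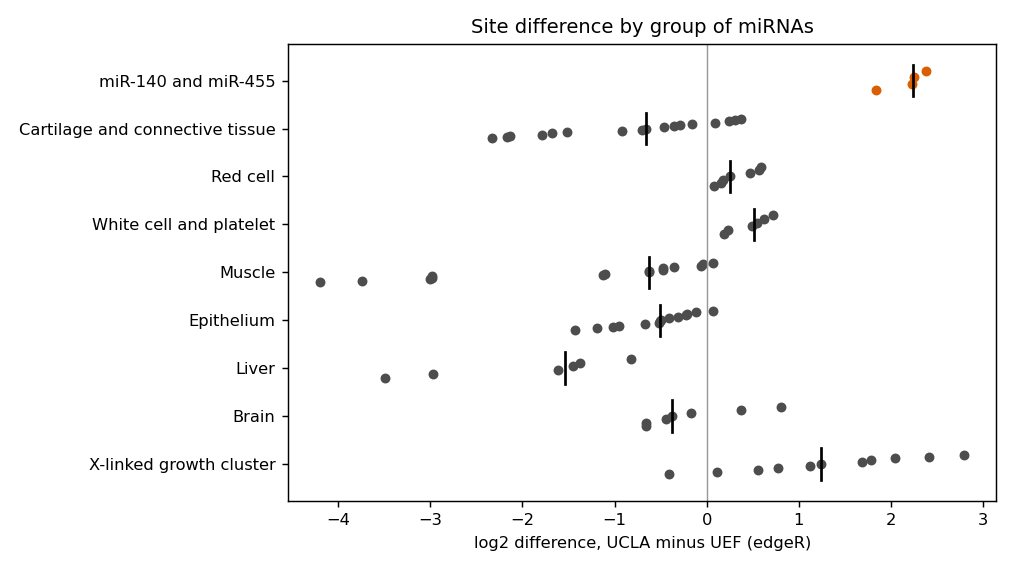
Log2 difference UCLA minus UEF (edgeR) of the 4 members and of each row of 8 lists of miRNAs, with 1 point per miRNA and a bar at the median. The members lie between 1.83 and 2.37, the X-linked growth cluster has a median of 1.24, and the liver list, with a median of −1.54, lies wholly below 0.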

How the data were processed

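The authors extracted RNA from plasma with the miRNeasy serum/plasma kit, made QIASeq miRNA libraries, used cutadapt to trim and Bowtie to align the reads to Rnor_6.0, and named miRNAs by miRBase. The deposited table holds whole-number counts per miRNA and rat, not normalized. Whether reads of 1 molecule were merged is not given in the sources used here.

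Members and lists were chosen with earlier results of these data known. Counts were tested with edgeR 4.0.16 (quasi-likelihood F test, TMM, minimum count 10, 751 of 754 miRNAs kept) in R 4.3.3, with site and condition as terms and all 29 rats, and Benjamini-Hochberg adjustment over all miRNAs kept at a threshold of 0.05. The injury difference by site used means of site by injury. The biological coefficient of variation was 0.475. DESeq2 1.42.0 was an alternative. Log2 CPM used a prior count of 2, and arm ratios a pseudocount of 0.5 with permutation tests (100000 resamples, or exact) in scipy 1.17.1. Named miRNAs were the members, the 3 most correlated with each, and up to 4 most abundant rows per list. miR-128-3p, the other miRNAs sharing the non-overlap of sites and 4 connective tissue rows were named after their values were seen. Correlations and list counts without single rats were added after the data were seen. Sequences were matched by name to RefSeq for 674 of 754 rows. No 2 rats had identical counts.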

Additional observations from a re-analysis of the deposited data

Results flagged for a closer look

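UCLA TBI+ 1 stood apart from the other 8 UCLA rats for both arms of miR-455, by the gap to its nearest neighbor relative to the range of the 9 rats. Its miR-455-3p was at 5.70 log2 CPM, where the other UCLA rats were at 8.75 to 10.09 (gap 0.694 of the range, critical value 0.493). Its miR-455-5p was at 6.04 log2 CPM, where the others were at 8.79 to 10.07 (gap 0.682 of the range). In all, 48 groups of values were examined and 2 stood apart, where chance gives about 1 in 20, or 2.4. The cause was not tested.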

How the results depend on the processing

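The 4 members kept their side of the threshold for TBI, later epilepsy and the interaction under every alternative run, as did the arm ratios. Site differences kept their direction. Estimates near 0 changed sign. For TBI+ minus TBI−, miR-455-3p was 0.015 with DESeq2 size factors and with DESeq2, 0.14 scaled to miR-28-3p, 0.0072 without UEF and 0.078 without Monash, miR-455-5p 0.016 scaled to miR-28-3p and 0.0040 without Monash, and miR-140-5p −0.022 without UCLA. For TBI minus sham, miR-140-3p was 0.052 without Monash. Leaving out 1 rat gave −0.29 to 0.062 for miR-140-3p with TBI (above 0 without Monash sham 2), and with epilepsy −0.0068 to 0.26 for miR-140-5p, −0.22 to 0.17 for miR-455-3p and −0.28 to 0.044 for miR-455-5p. In sham rats alone UCLA minus Monash was 1.00 (SE 0.56) for miR-140-3p, 0.78 (SE 0.52) for miR-140-5p, 1.44 (SE 0.52) for miR-455-3p and 1.34 (SE 0.49) for miR-455-5p. In injured rats alone it was 2.03, 1.59, 2.21 and 2.26 in the same order. Scaling to miR-28-3p moved the median of all miRNAs to 0.14 for TBI+ minus TBI−, −0.13 for Monash minus UEF and −0.10 for UCLA minus UEF. The count for TBI was 25 by DESeq2, 17 with at least 10 counts in every rat, 0, 21 and 14 without UEF, Monash and UCLA, and 1 to 16 without 1 rat (1 without UEF sham 4, 16 without Monash sham 2). The interaction count was 2 with DESeq2 size factors, 5 with upper-quartile factors, 17 by DESeq2, 3 with at least 10 counts in every rat and 0 to 10 without 1 rat. For Monash against UEF it was 46 with upper-quartile factors, 18 scaled to miR-28-3p, 35 in sham rats, 0 in injured rats and 39 to 117 without 1 rat. The share of those calls higher at Monash was 56% with TMM, 64.7% with DESeq2 size factors, 63% with upper-quartile factors and 50% scaled to miR-28-3p. UCLA against UEF gave 36 in sham and 40 in injured rats, and UCLA against Monash 21 and 23, and 25 to 59 without 1 rat. Replicate numbers did not pair rats: over 103 pairs with the same number the mean correlation of deviations was −0.0164, and 4 of 29 rats correlated best with their own number. With the replicate number as a block the counts were 5 for TBI, 0 for the interaction, 31 for Monash against UEF and 46 for UCLA against UEF. The cause of these shifts was not tested. At these numbers of rats the intervals of the injury differences span about 1 log2 unit or more.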
